A study of Mus musculus with 12 samples.

Results

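Trimethylation of lysine 9 on histone H3 (H3K9me3) was examined at 5 imprinted genes in 3 places on mouse chromosome 6, in a comparison of Tex19.1-/- with Tex19.1+/- embryonic stem cells. Tex19.1 is a mammalian gene active in germ cells and pluripotent cells. The genes were Mest, the neighbours Peg10 and Sgce, and Nap1l5 with its host gene Herc3. Members were all regions of the authors' deposited table that overlap 30.72 to 30.76 Mb (Mest), 4.66 to 4.77 Mb (Peg10 and Sgce) or 58.82 to 58.94 Mb (Nap1l5 and Herc3) on chromosome 6 of the build mm10. This gave 13 of the 68291 regions of the table, of which 2 lay at Mest, 4 at Peg10 and Sgce, and 7 at Nap1l5 and Herc3. All 13 are described here. The rule uses coordinates only, but the loci were chosen with earlier results of these data known.

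The groups were Tex19.1-/- (KO) and Tex19.1+/- (Het) cells, each with 3 libraries of immunoprecipitated DNA and 3 libraries of input DNA. All cells were derived from the E14Tg2a line, of 129/Ola background, and had been passaged 12 to 20 times. Fixed nuclei were sonicated and chromatin was pulled down with an Abcam antibody. The titles give the genotypes used here, whereas the genotype field differs from the title in 6 of the 12 libraries. Whether libraries of the same genotype are separate cultures or clones is not said in the labels, and the p-values then measure only the spread between these libraries, which may be technical. The table holds 1 comparison and 0 columns of single libraries, so levels and depth per library and the replicate spread were not analysed here. The reference genotype is not stated, so that the direction of each log2 fold change is unknown, and changes are given as positive or negative.

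Imprinted genes are expressed mainly from the chromosome of one parent. Their control regions carry DNA methylation laid down in the egg or the sperm, and at Mest, Peg10 and Nap1l5 the methylated copy is the maternal one. On the methylated copy the zinc finger protein ZFP57 binds the hexamer TGCCGC and recruits KAP1 and the methyltransferase SETDB1, which places H3K9me3 there. Mest encodes a protein of the hydrolase fold family and Peg10 a protein derived from a retrotransposon that the mouse placenta needs. Sgce encodes epsilon-sarcoglycan, a membrane glycoprotein. Nap1l5 is a retrogene related to nucleosome assembly proteins and lies inside Herc3, which encodes a protein with a HECT ubiquitin ligase domain. Mest, Peg10, Sgce and Nap1l5 are expressed from the paternal copy.

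The sequences before the gene starts are shown because the strongest H3K9me3 region of each locus lay over such a start. RefSeq (GRCm38.p6, the assembly that mm10 names) gave 5 promoter entries for 3 of the genes, 3 for Mest and 1 each for Herc3 and Nap1l5, while Peg10 and Sgce are named only. The 250 bases before each start are printed 5′ to 3′ on the gene's strand, with TGCCGC or its reverse complement GCGGCA in capitals. The downstream Mest start has 2 entries 3 bases apart (starts 30738050 and 30738053), of which the first is printed.
Mest, upstream start, chr6:30733256-30733505, plus strand: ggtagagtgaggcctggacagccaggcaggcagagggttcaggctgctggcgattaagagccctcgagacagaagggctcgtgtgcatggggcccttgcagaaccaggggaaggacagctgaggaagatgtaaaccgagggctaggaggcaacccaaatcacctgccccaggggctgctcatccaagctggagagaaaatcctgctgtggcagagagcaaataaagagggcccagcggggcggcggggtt
Mest, downstream start, chr6:30737800-30738049, plus strand: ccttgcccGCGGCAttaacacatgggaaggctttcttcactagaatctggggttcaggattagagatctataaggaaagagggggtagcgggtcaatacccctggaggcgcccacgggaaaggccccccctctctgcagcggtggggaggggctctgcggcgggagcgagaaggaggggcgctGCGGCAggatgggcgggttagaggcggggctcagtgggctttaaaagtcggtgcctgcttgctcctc
Nap1l5, chr6:58907127-58907376, minus strand: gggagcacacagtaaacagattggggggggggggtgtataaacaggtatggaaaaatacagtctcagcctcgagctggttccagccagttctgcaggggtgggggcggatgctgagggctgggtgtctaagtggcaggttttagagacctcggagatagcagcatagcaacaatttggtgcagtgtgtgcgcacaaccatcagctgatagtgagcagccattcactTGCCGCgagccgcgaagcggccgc
Herc3, chr6:58833450-58833699, plus strand: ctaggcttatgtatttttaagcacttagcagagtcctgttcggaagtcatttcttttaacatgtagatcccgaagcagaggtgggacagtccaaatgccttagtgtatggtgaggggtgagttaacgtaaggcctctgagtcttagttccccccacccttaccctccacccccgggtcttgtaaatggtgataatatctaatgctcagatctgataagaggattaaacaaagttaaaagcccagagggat
The downstream Mest window held 2 matches of the hexamer and 14 CpG dinucleotides. The Nap1l5 window held 1 match and 10 CpG, the upstream Mest window 0 matches and 7 CpG, and the Herc3 window 0 matches and 4 CpG. Among 32817 promoter windows of the same length, 8.68% held at least 1 match on either strand and 0.875% at least 2, and the median was 6 CpG. The starts of Mest and Nap1l5 lay inside an H3K9me3 region and this Herc3 start, 58833700, inside the annotated body, did not. A match is a description of these letters only, and binding was not measured.

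The Mest region was the only one of the 13 that was called, by an FDR below 0.05 in the authors' deposited table, where 0.281% of all regions were called and 0.0893% were called with a negative value. It spans 30733159 to 30741177 and the authors' deposited table gives it a log2 fold change of -0.90 (p = 1.68e-28, FDR 5.75e-24). The standard error derived from that p-value was 0.08, and the 95% interval from it ran from -1.06 to -0.74. The difference was 1.86-fold in size. Its p-value was number 2 in rank among all regions of the authors' deposited table, and 8 called regions had more negative values. On chromosome 6, 5 of 3928 regions were called, 2 with a negative and 3 with a positive value. The Mest region was the more negative of that pair (-0.90 against -0.35), and the largest called change in size was positive (136471695 to 136473346, 1.74 in the authors' deposited table).

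The called region is broad and strong. It was 8018 bp wide, wider than 99.4% of all regions, with an average signal of 139 CPM (read counts scaled to library size), or 7.12 as log2 CPM, above 99.4% of all regions. Per kilobase it had 17.4 CPM, above 95.3% of all regions, most of them narrower. Whether this is high among regions of like width was not tested. It covered both annotated Mest starts, the upstream one 347 bp and the downstream one 4891 bp inside its left edge, and 51.3% of the gene body (30733506 to 30748466). It ended 122 bp before Mir335, a microRNA gene within Mest. Which exons it covered was not analysed here.

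A value this negative was not seen at other regions of like strength. Of the 780 regions with a log2 CPM within 0.5 of that of Mest, 4.49% were called in the authors' deposited table, and only the Mest region itself had a value of -0.90 or below. Of the 730 other regions that were also at least 5 kb wide, 32 were called, 10 of them negative, and values ran from -0.60 to 0.66 with a median of -0.08. The derived error of the call is small, and it comes from the authors' test. With an error of up to 0.235, or about 2.91 times the derived one, the call would have been kept.

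The other member at Mest was a weak region of 500 bp outside the gene, 895 bp before the upstream start (30732111 to 30732611). The authors' deposited table gives it a log2 fold change of -0.65 (FDR 1), and the derived error was 0.54 at 4.66 CPM. It held 3.23% of the signal summed over the locus, against 96.8% for the called region. Of 22265 regions of like signal 0.00898% were called, the smallest change among these being 2.11. With the derived error the 95% interval of -1.72 to 0.41 holds both the value of the called region and 0.

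**Figure D1:**
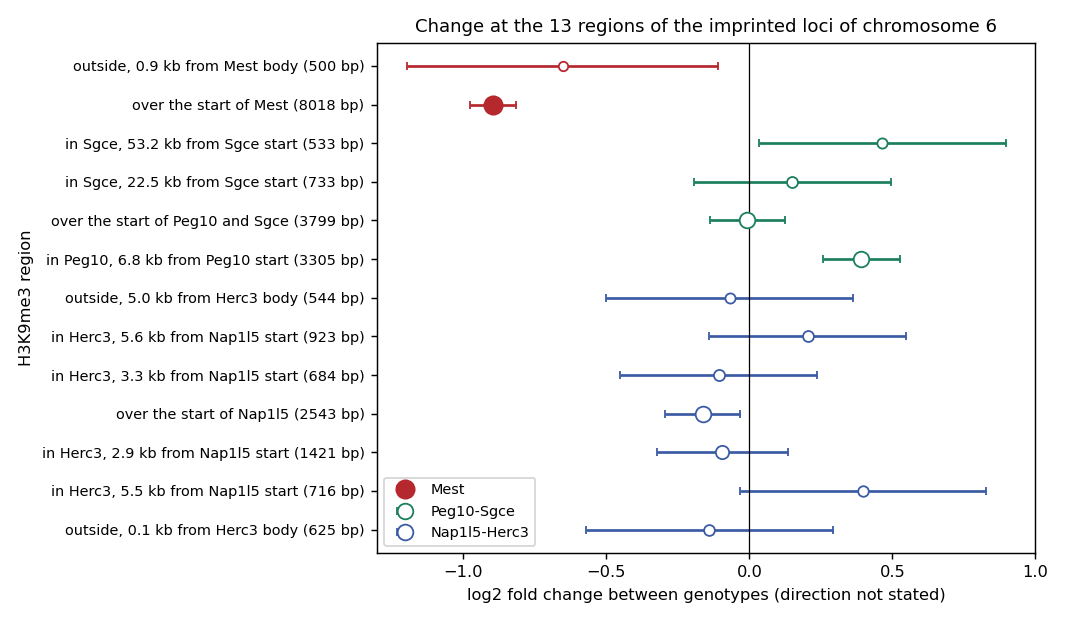
Log2 fold change between genotypes in the authors' deposited table (x axis, direction not stated) at each of the 13 regions (rows, in order along each locus). Points are values, bars are 1 derived standard error on either side, larger points have higher log2 CPM and the filled point is the called region. The Mest region at -0.90 stands apart, while the regions over the starts of Peg10 and Sgce (-0.01) and of Nap1l5 (-0.16) lie close to 0.

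At Peg10 and Sgce, 0 of 4 regions were called in the authors' deposited table, beside 0.281% of all regions. Of the 4, 1 had an unadjusted p below 0.05, as did 4.74% of all regions. The bodies of the 2 genes lie 102 bp apart, with the starts at the edges of this gap, facing away from each other. The strongest region spanned both starts (4745898 to 4749697, 3799 bp, 50.1 CPM). Its log2 fold change was -0.01 (FDR 1) in the authors' deposited table. Its error of 0.13 is not its own but the median of its log2 CPM bin, and gave a 95% interval of -0.27 to 0.25. The whole interval of the called Mest region, -1.06 to -0.74, lies below it.

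A further strong region lay inside Peg10, 6825 bp from its start (4754131 to 4757436, 3305 bp). Its signal of 48.9 CPM was close to that over the starts, and the pair held 43.0% and 44.1% of the signal summed over the locus. Its log2 fold change was 0.39 in the authors' deposited table (p = 0.00383, FDR 0.406), so it was not called, and the derived error was 0.14. Of 4571 regions of like signal, 116 had a value at least as high, itself included, and the smallest called change among them was 0.44. The difference between the region inside Peg10 and that over the starts was 0.40, with a 95% interval of 0.03 to 0.77 from the derived errors. That interval takes the regions as independent, although both come from the same comparison, and is not adjusted for the number of pairs compared.

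The other regions of this locus lay inside Sgce and were weak. The region 22481 bp from the Sgce start (4723990 to 4724723) showed a log2 fold change of 0.15 (FDR 1) in the authors' deposited table, at 8.41 CPM and with an error of 0.34. The region 53187 bp from the start (4693484 to 4694017) showed 0.46 (FDR 1) in the authors' deposited table, at 6.30 CPM and with an error of 0.43. Their 95% intervals, -0.52 to 0.82 and -0.38 to 1.31, are wide because these errors, the medians of their log2 CPM bins, are large. At such signal the smallest called changes were 1.24 and 1.46. Together with the region over the starts they covered 3.53% of the Sgce body, against 43.1% of Peg10.

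At Nap1l5 and Herc3, 0 of 7 regions were called in the authors' deposited table and 0 had an unadjusted p below 0.05. Over all regions the shares were 0.281% and 4.74%, so counts of 0 do not set these members apart. The strongest covered the Nap1l5 start and 75.4% of this short gene, which lies within the Herc3 body (58905698 to 58908241, 2543 bp, 51.6 CPM). Its log2 fold change was -0.16 in the authors' deposited table (p = 0.212, FDR 1), where the derived error of 0.13 gave a 95% interval of -0.42 to 0.09. Per kilobase it had 20.3 CPM, the highest of the 13 regions and above 98.4% of all regions. This exceeded the 17.4 CPM per kilobase of the broader Mest region and the 13.2 over the starts of Peg10 and Sgce.

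The regions around Nap1l5 formed a cluster inside Herc3. The region 2947 bp from the Nap1l5 start on the side before the gene (58910073 to 58911494, 20.6 CPM) had -0.09 in the authors' deposited table, with an error of 0.23. Of the remaining regions, the 3 within Herc3 had log2 fold changes of 0.20 (58900648 to 58901571), -0.11 (58903132 to 58903816) and 0.40 (58912578 to 58913294) in the authors' deposited table, with errors of 0.34, 0.34 and 0.43. The regions outside, 4998 bp before the Herc3 body (58825913 to 58826457) and 87 bp beyond the end of its body (58920485 to 58921110), had -0.07 and -0.14 in the authors' deposited table, each with an error of 0.43. The authors' deposited table gives all 6 an FDR of 1. The mark covered 7.07% of Herc3 (58831455 to 58920398).

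**Figure D2:**
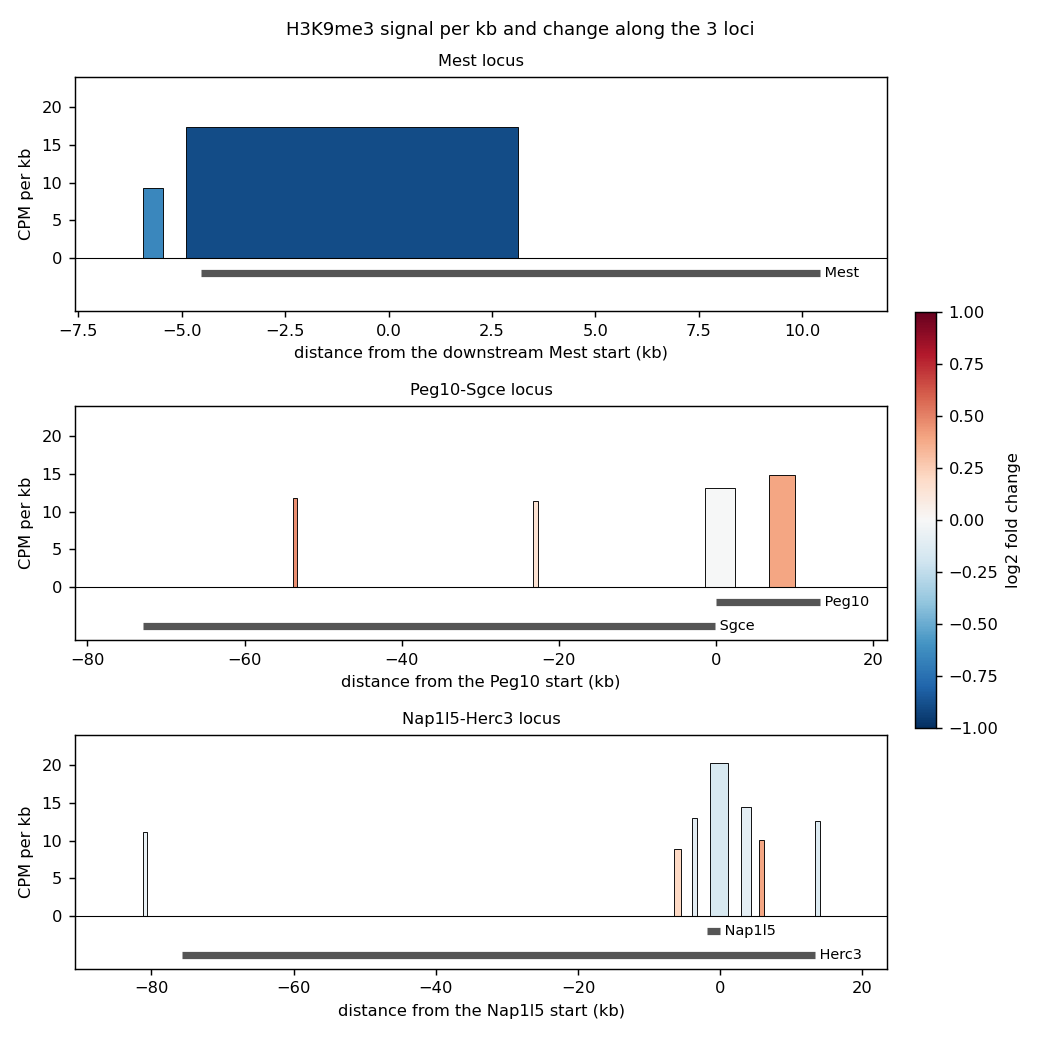
H3K9me3 signal per kilobase (y axis, CPM per kb) along the 3 loci against the distance from a gene start (x axis, kb, rising with mm10 coordinates). Each box is a region, coloured by its log2 fold change in the authors' deposited table (direction not stated), and grey bars are gene bodies. The Mest region is the widest, at 8018 bp, and the region over the Nap1l5 start the densest, at 20.3 CPM per kb.

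The strongest regions of the 3 loci, each over a gene start, were set against each other with the derived errors, in 6 pairs that include the region inside Peg10. The Mest value was below that of the Peg10 and Sgce starts by a log2 difference of -0.89 (95% interval -1.19 to -0.59). Against the Nap1l5 region the difference was -0.73 (-1.03 to -0.43), and against the region inside Peg10 it was -1.29 (-1.60 to -0.98). Between the regions over the starts of Nap1l5 and of Peg10 and Sgce the difference was -0.16, with an interval of -0.52 to 0.21 that includes 0. The region inside Peg10 was above the Nap1l5 region by 0.55 (0.19 to 0.92). Whether the derived errors hold the variation between libraries was not tested, so these intervals may be too narrow. They also take the regions as independent, although all come from the same comparison. No interval is adjusted for the number of pairs, and the region inside Peg10 was itself not called. The error over the Peg10 and Sgce starts is the median of its log2 CPM bin. The 12 regions that were not called had a median of -0.04, 5 positive and 7 negative, beside a median of -0.01 over all regions and on chromosome 6.

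**Figure D3:**
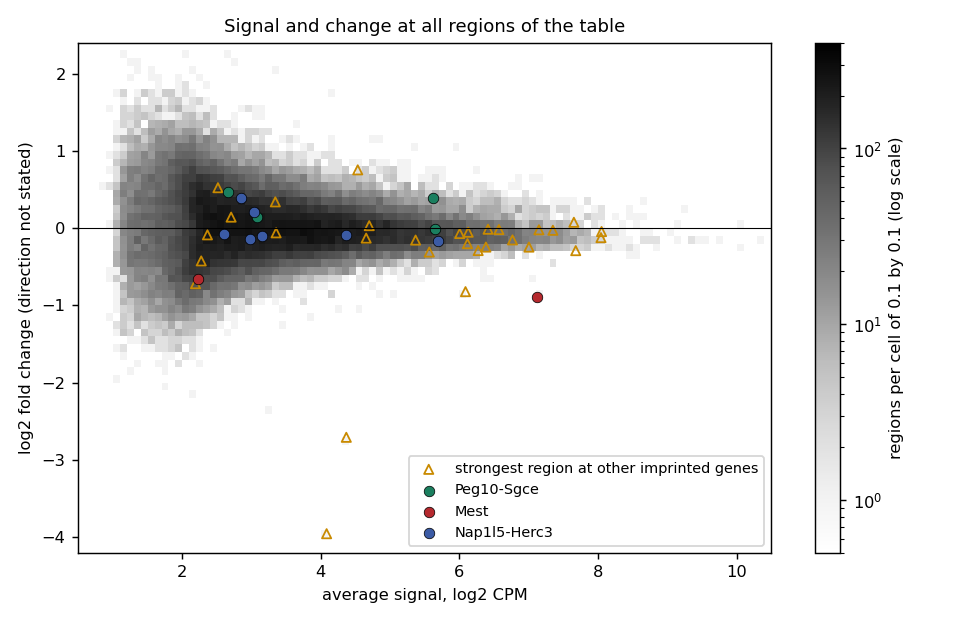
Average signal (x axis, log2 CPM) and log2 fold change in the authors' deposited table (y axis, direction not stated) of all 68291 regions, as shading by number on a log scale, with the 13 members as filled circles and the strongest region at other imprinted genes as triangles. At a log2 CPM of 7.12 the Mest region lies below every region of like signal, while the other members lie within the shaded cloud.

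Within 500 kb on either side of the 3 windows, 0 of 61 regions were called in the authors' deposited table and 1 had an unadjusted p below 0.05. Over all regions the shares were 0.281% and 4.74%. Around Mest the 14 regions had a median of 0.06 and ran from -0.43 to 0.66. Values ran from -0.72 to 0.71 around Peg10 and Sgce (17 regions, median -0.01) and from -0.58 to 0.37 around Nap1l5 and Herc3 (30 regions, median 0.01). The lowest of all, near Pon1, had a derived error of 0.51, so that its 95% range holds the Mest value. The nearest region to Mest, in Cpa1, a carboxypeptidase gene, was 90337 bp away (30641274 to 30641774) and had -0.43 (error 0.54, FDR 1) in the authors' deposited table, a range that also holds the Mest value. On the other side the nearest was 183775 bp away, beyond Copg2 and Tsga13 (30924952 to 30925929), with 0.34 in the authors' deposited table and an error of 0.34. The nearest regions to Peg10 and Sgce had -0.01 (4472756 to 4474215) and 0.43 (4802659 to 4803087), and those to Nap1l5 and Herc3 had 0.34 (58816835 to 58817131) and -0.15 (59044447 to 59045369), each at FDR 1 in the authors' deposited table.

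Among 16 neighbouring genes of the Mest and Peg10 clusters, 8 had a region within 5 kb. Of their 16 regions 0 were called in the authors' deposited table, 1 had an unadjusted p below 0.05 and 0 passed a normal approximation. That approximation divides each log2 fold change by the median error of its log2 CPM bin, with Benjamini-Hochberg adjustment over all regions. In the deposited values of all regions, 0.281% were called and 4.74% had an unadjusted p below 0.05. The strongest lay in Ppp1r9a, which encodes the actin-binding protein neurabin (4919669 to 4927770). At 8101 bp and a log2 CPM of 7.35 it was of the width and signal of the Mest region, yet it had -0.03 (error 0.08, FDR 1) in the authors' deposited table. This error, unlike that of Mest, is not its own but the median of its log2 CPM bin. Calcr, the calcitonin receptor gene, had -0.20 (error 0.11) and Asb4 had -0.31 (error 0.14, unadjusted p = 0.0282, FDR 0.907) in the authors' deposited table. Copg2, which overlaps the end of Mest, had no region outside the Mest window.

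The other maternally methylated imprinted loci give a scale for the Mest value. Of 23 such genes 22 had a region, and the strongest regions made 17 distinct ones, of which 4 were called in the authors' deposited table, each negative. Over all 57 regions of these genes 5 were called, each negative, and the median was -0.07 in the authors' deposited table. Of the 57, 10 had an unadjusted p below 0.05 and 6 passed the normal approximation. The share called was 0.281% over the whole table but rose with signal. It was 0.0281% near a log2 CPM of 2.65 and 4.49% at the signal of Mest. No share was matched in signal to the 57 regions, so the whole-table share is not a like comparison. One called region was not the strongest at its gene and is not named. The 4 called among the strongest were at Impact (-3.95, error 0.33, FDR 2.22e-28), at H13 and its retrogene Mcts2 (-2.71, error 0.25, FDR 1.53e-22), at Zfp787 (-0.82, error 0.12, FDR 8.94e-09) and at Gnas and Nespas (-0.29, error 0.07, FDR 0.00761). The Mest value thus lay close to that of Zfp787 and between those of H13 and Gnas. The 13 that were not called ran from -0.29 to -0.01 in the authors' deposited table, a span that holds the Nap1l5 value and ends beside that of the Peg10 and Sgce starts. All 17 were negative in the authors' deposited table, with a median of -0.15. They were chosen by signal in or within 5 kb of a gene, and overlap with a methylated control region was not tested. That at Slc38a4 was 500 bp wide, outside the gene body, at a log2 CPM of 2.36. The 780 regions of like signal to Mest had a median of -0.08, but the 17 ranged in log2 CPM from 2.36 to 8.05 and are not matched to these. With the median of like signal subtracted, 12 of the 17 were negative. The strongest of those not called were at Nnat (-0.04, error 0.06), Peg13 (-0.12, error 0.06), Igf2r and Airn (-0.02, error 0.08) and Plagl1 (-0.24, error 0.08), with FDR values of 1, 0.991, 1 and 0.358 in the authors' deposited table. At 6 paternally methylated genes, 5 had a region. Of their 20 regions 0 were called in the authors' deposited table, 4 had an unadjusted p below 0.05 and 1 passed the normal approximation. Over all regions 4.74% had an unadjusted p below 0.05, a share not matched in signal to these lists. Of the 5 strongest, 3 were positive, and the highest, at Zdbf2, had 0.75 (error 0.21, p = 0.000236, FDR 0.0705) in the authors' deposited table, of the opposite sign to Mest and close to it in size. These lists were written with earlier results of these data known, and nothing is tested over them.

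**Figure D4:**
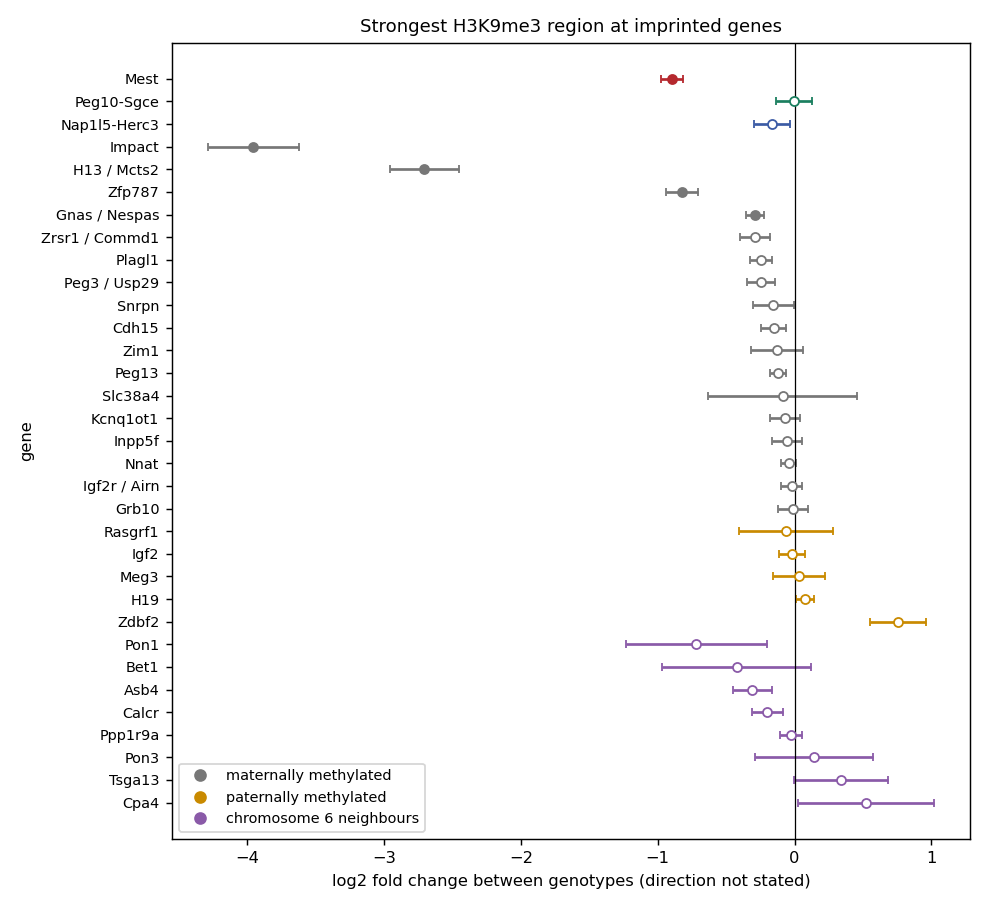
Log2 fold change in the authors' deposited table (x axis, direction not stated) of the strongest region at each imprinted gene (rows), with bars of 1 derived standard error on either side, filled where called. The strongest regions at Mest, at Peg10 and Sgce, and at Nap1l5 and Herc3 are in the top rows. Mest at -0.90 lies beside Zfp787 at -0.82, and Impact and H13 with Mcts2 lie at -3.95 and -2.71.

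Neither the genotypes nor the cell type could be checked in this table. It had 0 regions within 5 kb of Tex19.1, and an H3K9me3 region at a marker gene gives no expression level. Of 5 pluripotency genes 2 had such regions, and of 5 fibroblast genes 2, with 0 called in the authors' deposited table. Reads of the parental copies are not separated in the table, so which copy carried the mark was not analysed here.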

How the data were processed

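Immunoprecipitated and input DNA was sequenced as paired 75-nt reads. The submitters' processing notes list the aligner Bowtie2 (2.2.6), bedtools (2.25.0), HOMER (4.8), edgeR and the build mm10, without saying how each was used. Per the file headers, the authors deposited coordinates, a log2 fold change, a log2 CPM, a p-value and an FDR for each of 68291 regions. No source used here says how regions were defined or whether input was used. The CPM sum to 1081650.

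Recomputed by Benjamini-Hochberg, the FDR differed from the deposited one by at most 3.2e-05. Each p-value was turned into a 2-sided normal deviate. Where the deviate reached 1 (19017 regions), the size of the log2 fold change over it was taken as the standard error. Elsewhere the error was borrowed, as the median of such errors in the same log2 CPM bin of width 0.5. Among the members, both Mest regions, the region inside Peg10 and the region over the Nap1l5 start had their own error. The other members had a borrowed one. Outside the members, the printed errors at Ppp1r9a, Nnat, Igf2r with Airn, and the nearest regions on either side of Mest were borrowed too. Intervals are value plus or minus the normal 95% range. The adjustment and the derivation of a region's own error were run on simulated data. There the p-values were made from normal errors, so these errors were recovered by construction. Borrowed errors, the intervals and how well the errors match the authors' test were not tested. Like signal means a log2 CPM within 0.5, or the same bin where a median was subtracted. Width is end minus start. Genes come from RefSeq (GRCm38.p6). Every member is named, with the nearest region on each side of each window and, at other listed imprinted genes, the strongest region. Members and lists were chosen with earlier results of these data known. Python 3.11.15, pandas 2.3.3 and scipy 1.17.1 were used.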

Additional observations from a re-analysis of the deposited data

How the results depend on the processing

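The planned tests on libraries, among them each library left out in turn, were not run, because the table used holds no values per library. No paired analysis was possible because of this too. The count of 1 called region did not change at an FDR below 0.01, under Holm adjustment, without chromosomes X and Y, without chromosomes 11 and 16, without regions shorter than 1000 bp or with the 10 regions overlapping the gene bodies only. The 13 regions within 5 kb of the bodies are the members themselves, so that this alternative tests nothing. The Mest value became -0.81 with the median of like signal subtracted and -0.88 with that of chromosome 6, and its adjusted p lay between 1.91e-26 and 1.15e-23 over the alternatives. The region inside Peg10 stayed uncalled, with an adjusted p from 0.171 without regions shorter than 1000 bp to 1 under Holm adjustment. The value over the starts of Peg10 and Sgce, -0.01 as deposited, turned positive with the median of like signal subtracted (0.053) and with that of chromosome 6 (0.007), since it lay nearer 0 than those medians. The Nap1l5 promoter held 2 hexamer matches in place of 1 with the 50 bases after the start added. In all, 98 recomputed values kept their direction and their side of the threshold, or moved by less than their derived error. Holm adjustment, the omissions and the normal approximation leave a log2 fold change as deposited and can move only its adjusted p. For these the direction was fixed in advance, so the count of 98 is no measure of robustness. The omission of chromosomes X and Y for single regions and the like-signal form of the differences were added after the data were seen. Signal sets what could be called. For the 8 members of 8.85 CPM or less, no region of like signal with a change under 1.24 was called.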
